A study of Homo sapiens with 30 samples.

Results

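Untreated T47D cells of 2 kinds were compared: cells labelled ICRF and cells transfected with a control siRNA (siControl). T47D is a human luminal breast cancer line with high progesterone receptor. The members were chosen from the sample titles as the 2 untreated ICRF libraries and the 2 untreated siControl libraries at time label T0, which makes 4 of the 30 samples of the series. The series as a whole holds 12 RNA-seq libraries, in 6 groups of 2, and 18 ChIP-seq samples, which were not analysed here. It follows how T47D cells respond to progestin, with and without knockdown of the transcription factor gene CEBPA. All 4 libraries came from cells at passages 18 to 20 that received no R5020, the synthetic progestin used elsewhere in the series at 10 nM. The siControl titles name a short arrest, which the labels' protocols describe as 4 hours in medium with 10% charcoal-treated serum before hormone. The general scheme in those protocols is 48 hours in charcoal-treated serum followed by 24 hours without serum. The ICRF titles name no siRNA, no arrest and no time, and the labels do not say what ICRF stands for. That name usually denotes a bisdioxopiperazine, a catalytic inhibitor of DNA topoisomerase II, and neither its dose nor its duration is given. ICRF, transfection, the arrest and any batch therefore separate the same libraries, and their parts in every difference below cannot be told apart. Nothing in the labels tells if the replicates came from separate cultures. Each p-value thus measures the spread between libraries, which may be technical.

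As background, cells returned to the cycle copy their DNA in S phase and then make the kinesins, cyclins and checkpoint proteins of mitosis, whose genes are induced late in the cycle through the DREAM and B-MYB complexes at CHR promoter elements. Topoisomerase II, encoded by TOP2A in dividing cells and by TOP2B in all cells, passes one DNA duplex through another and is needed to separate sister chromatids. Interferons act through JAK kinases and a STAT complex with IRF9, which binds the interferon-stimulated response element (ISRE). Foreign nucleic acid, including some siRNA, can start that pathway. ATF4 is the transcription factor of the amino acid stress response, and heat shock factor drives the chaperone genes. Luminal breast cells carry KRT8, KRT18, ESR1 and GATA3, whereas basal cells carry KRT5, KRT14 and TP63.

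Promoters are printed for the 4 interferon-stimulated and the 3 mitotic genes with the largest difference in the direction of their list, among those called, expressed (mean of 5 CPM or more in 1 group, CPM being counts scaled to 1000000 per library) and present in the promoter table. They show the sequence before the genes that were furthest apart. Each stretch is the 250 bases before the RefSeq gene start, build GRCh38.p14, written 5′ to 3′ on the gene's strand. Capitals mark an ISRE core (GAAA, any 2 bases, GAAA) in the interferon-stimulated genes and a CHR (TTTGAA or TTCGAA) in the mitotic genes, on either strand.
IFITM1, chr11:313790-314039, plus strand: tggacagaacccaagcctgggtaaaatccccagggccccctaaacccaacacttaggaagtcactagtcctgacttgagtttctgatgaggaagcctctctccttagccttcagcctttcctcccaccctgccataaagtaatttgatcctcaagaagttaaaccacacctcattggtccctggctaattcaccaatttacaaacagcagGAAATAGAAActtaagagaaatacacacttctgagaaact
IFITM3, chr11:320861-321110, minus strand: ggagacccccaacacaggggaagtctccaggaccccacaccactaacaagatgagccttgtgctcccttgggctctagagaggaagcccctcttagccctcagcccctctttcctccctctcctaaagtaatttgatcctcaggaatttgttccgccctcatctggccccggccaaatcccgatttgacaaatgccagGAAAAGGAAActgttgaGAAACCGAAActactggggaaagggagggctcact
OAS1, chr12:112906712-112906961, plus strand: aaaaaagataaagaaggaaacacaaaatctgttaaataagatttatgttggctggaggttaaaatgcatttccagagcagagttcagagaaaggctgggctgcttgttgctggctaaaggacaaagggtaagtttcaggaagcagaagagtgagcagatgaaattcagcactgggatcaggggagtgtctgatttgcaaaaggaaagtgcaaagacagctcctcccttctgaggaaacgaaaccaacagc
XAF1, chr17:6755796-6756045, plus strand: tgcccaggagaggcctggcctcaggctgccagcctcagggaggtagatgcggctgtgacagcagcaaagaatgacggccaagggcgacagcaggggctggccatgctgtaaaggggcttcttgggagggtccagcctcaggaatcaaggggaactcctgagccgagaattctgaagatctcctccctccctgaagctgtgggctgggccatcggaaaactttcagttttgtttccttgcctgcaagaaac
HMMR, chr5:163460382-163460631, plus strand: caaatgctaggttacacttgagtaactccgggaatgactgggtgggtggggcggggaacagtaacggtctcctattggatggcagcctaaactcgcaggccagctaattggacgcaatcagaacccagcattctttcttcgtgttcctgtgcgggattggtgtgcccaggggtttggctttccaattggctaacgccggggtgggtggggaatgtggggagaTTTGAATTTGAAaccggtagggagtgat
CENPA, chr2:26785806-26786055, plus strand: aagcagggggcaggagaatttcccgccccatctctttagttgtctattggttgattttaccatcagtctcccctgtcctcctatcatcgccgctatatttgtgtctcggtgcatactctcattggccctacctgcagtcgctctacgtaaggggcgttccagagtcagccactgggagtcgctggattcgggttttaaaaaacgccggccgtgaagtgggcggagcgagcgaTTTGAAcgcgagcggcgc
ASPM, chr1:197146670-197146919, minus strand: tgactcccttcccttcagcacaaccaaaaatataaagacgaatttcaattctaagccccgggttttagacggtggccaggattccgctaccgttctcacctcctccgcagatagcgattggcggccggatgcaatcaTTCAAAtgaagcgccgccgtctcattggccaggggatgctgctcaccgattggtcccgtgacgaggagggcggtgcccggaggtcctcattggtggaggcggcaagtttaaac
The ISRE core was present in the windows of the neighbouring genes IFITM1 and IFITM3, and these exact letters were not in the windows of OAS1 and XAF1. A CHR stood in all 3 mitotic promoters. Over the 49 interferon-stimulated genes with a promoter entry, 27 (55.1%) held the ISRE core, against 3.07% of all 27305 promoters of the same length. Over the 34 mitotic genes with an entry, 19 (55.9%) held a CHR, against 14.6% of all promoters, and 26 (76.5%) held CCAAT on either strand, against 33.0%. CCAAT also stood in 65% of the promoters of ATF4-dependent genes and in 62.9% of those of DNA replication genes. Its shares were 42.9% for interferon-stimulated and 32.4% for motile cilium genes. A match is a description of letters and not a binding site. The annotation of the counts starts IFITM1 upstream of its RefSeq start, so the printed window lies inside the gene as counted.

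The ICRF libraries held 103325022 and 106173751 counts and the siControl libraries 68050942 and 148624099, with between 25058 and 27517 genes with a count. Mitochondrially encoded genes took 3.29% to 3.44% of counts in the ICRF libraries and 4.07% to 4.96% in the siControl libraries. The first 2 principal components of the 12 libraries held 38.5% and 31.5% of the variance, and on the second all 4 ICRF libraries lay above all 8 siRNA libraries. Of the fibroblast, endothelial and blood cell markers, 12 of 20 could be tested. Their summed level was 30.9 to 34.3 CPM in ICRF and 66.1 to 73.0 CPM in siControl, nearly all of it COL1A1, which was lower (log2 -1.26). Of the 12, 5 were higher and 4 lower (median 0.09). PDGFRA, DCN and LUM, fibroblast markers, were higher by 3.15, 2.10 and 0.56, at 2.64 CPM or less in each library. The number higher was 2 without ICRF replicate 1 and 3 without siControl replicate 2, and without ICRF replicate 2 or siControl replicate 2 the number lower was 2. PTPRC (all blood cells), CD3E, HBB, PECAM1, CDH5 and FAP (fibroblasts) were each under 0.1 CPM in every untreated library. In bulk RNA, fewer cells of a type and less RNA per cell cannot be told apart.

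In edgeR's quasi-likelihood test, 12279 of 19003 genes (64.6%) differed between untreated ICRF and untreated siControl cells at an adjusted p under 0.05. Of these, 6133 (32.3% of all tested) were higher in ICRF and 6146 (32.3%) lower, and the median log2 difference over all genes was -0.0028. At least a 2-fold difference was called for 3215 genes (16.9%), 1505 higher and 1710 lower. A list of genes is therefore read against about 32.3% called in each direction and a median near 0. To show whether a difference also held against other transfected cells, the untreated cells with siRNA against CEBPA (siCEBPA) are given beside it. These cells also have the labels short arrest and T0. Against them, 60.7% of genes were called, 31.0% higher in ICRF and 29.8% lower. Both comparisons use the same 2 ICRF libraries, so their values stand side by side and are not independent. The siCEBPA cells are not a neutral control, since they carry the knockdown. Where the 2 references give different results, an effect of the knockdown cannot be told apart from a trait of siControl, and this was not tested.

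**Figure D1:**
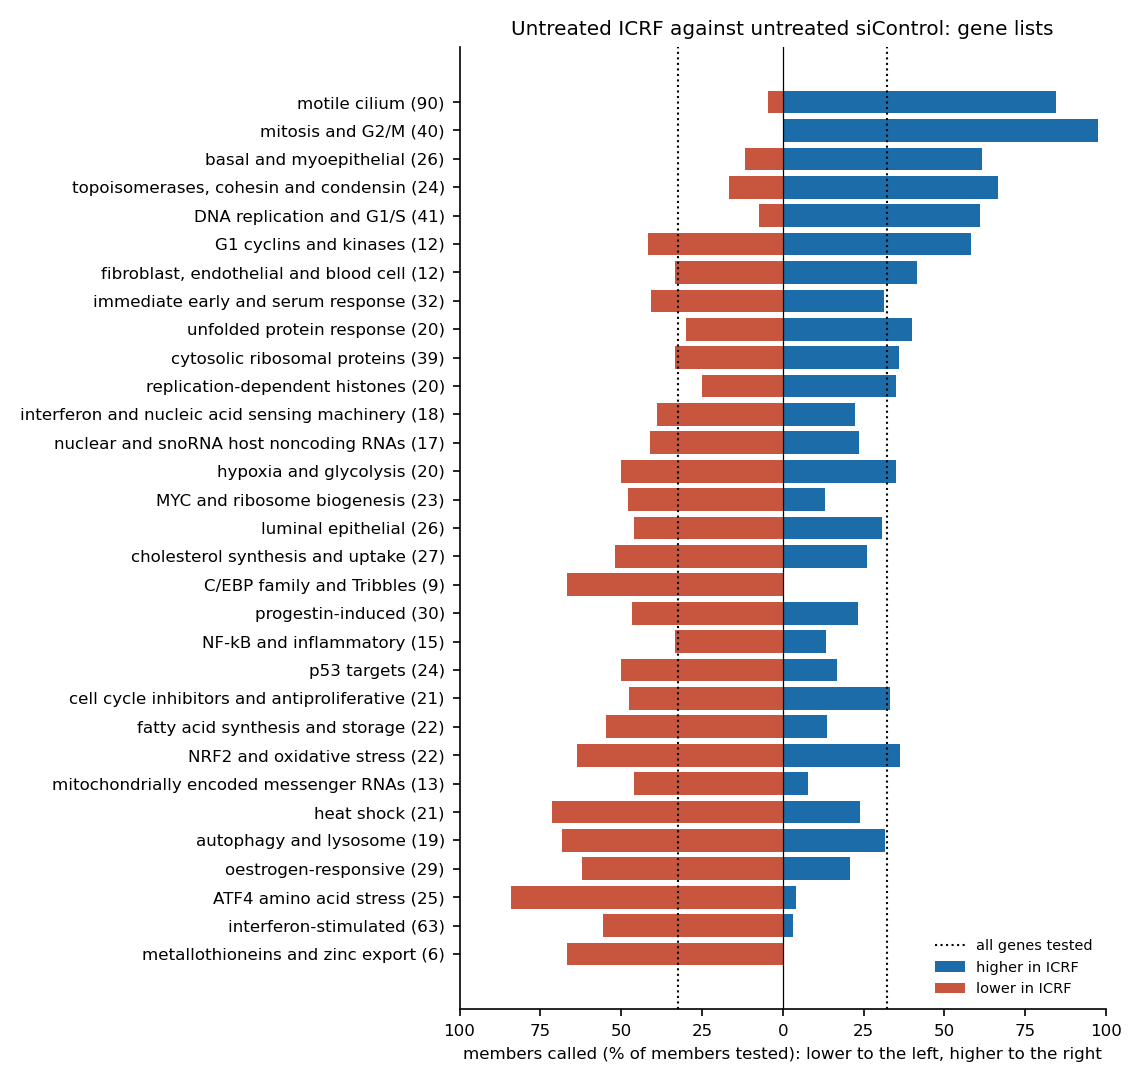
Share of the members of each gene list called higher (right) or lower (left) in untreated ICRF than in untreated siControl cells, as a percentage of the members tested (number in parentheses), ordered by the median log2 difference. Dotted lines mark the share of all 19003 genes, 32.3% on each side; mitosis genes reach furthest to the right with 39 of 40 and ATF4 genes furthest to the left with 21 of 25.

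Mitotic genes were higher in the ICRF cells almost without exception. Of 40 genes of mitosis and G2/M, 39 were higher and 0 lower, with a median log2 difference of 0.75, and 38 were higher than in siCEBPA cells (median 0.84). HMMR, which encodes a spindle-associated hyaluronan receptor, stood at 256 and 244 CPM in the ICRF libraries and at 82.2 and 72.7 CPM in the siControl libraries. It was 3.23-fold higher (log2 1.69, SE 0.13, adjusted p = 1.17e-05). The groups lay far apart, and the siCEBPA libraries at 100 and 80.3 CPM sat beside siControl. CENPA, the histone H3 variant of centromeres, was at 32.4 and 31.6 CPM against 12 and 10.9 CPM (log2 1.49, SE 0.08, adjusted p = 2.27e-12). ASPM, a spindle pole protein, was at 285 and 293 CPM against 115 and 104 CPM (log2 1.40, SE 0.05, adjusted p = 1.88e-13). For both genes the libraries within a group differed far less than the groups.

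The cyclins and kinases that drive mitotic entry differed less. CDK1 was at 391 and 389 CPM against 221 and 199 CPM (log2 0.89, SE 0.05, adjusted p = 1.44e-12). CCNB1, its cyclin partner, was higher by a log2 of 0.69 and CCNA2 by 0.87, while PLK1 and AURKA, mitotic kinases, were higher by 0.51 and 0.39. The spindle checkpoint kinases BUB1 and TTK were higher by 1.05 and 1.01. MKI67, the gene of the proliferation marker Ki-67, was the exception. It was at 372 and 385 CPM against 393 and 368 CPM, so that the groups overlapped, with a log2 difference of -0.01 (SE 0.07, adjusted p = 0.935).

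Genes of DNA replication and the G1/S transition were also mostly higher, by smaller amounts. Of 41, 25 were higher and 3 lower (median 0.30), and against siCEBPA 35 were higher and 1 lower (median 0.41). Genes of nucleotide supply were among them. RRM2, the regulated subunit of ribonucleotide reductase, was at 310 and 307 CPM against 171 and 155 CPM (log2 0.92, SE 0.06, adjusted p = 1.83e-10), and TYMS was higher by 0.81. The RRM2 groups did not overlap. The clamp loader subunits RFC2 and RFC3 and the GINS subunits GINS1 and GINS4 were higher by 0.83 to 0.91. The MCM helicase subunits did not follow: MCM4 was higher by 0.16, MCM7 and MCM5 were lower (log2 -0.29 and -0.13), and MCM2, MCM3 and MCM6 did not pass the test. The 3 lower members were MCM7, CDC25A and MCM5, and without siControl replicate 1 the number lower was 1.

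The regulators of G1 divided. CCND1, the gene of cyclin D1, was at 79.6 and 78.7 CPM in ICRF and at 212 and 228 CPM in siControl, and the siCEBPA libraries at 165 and 170 CPM stood between. It was 2.78-fold lower (log2 -1.47, SE 0.04, adjusted p = 4.20e-16). MYC, the growth-promoting transcription factor, was at 8.98 and 6.02 CPM against 48.3 and 47.4 CPM (log2 -2.67, SE 0.14, adjusted p = 1.03e-07), with siCEBPA at 40.0 and 38.1 CPM. Neither gene's groups overlapped. RB1 and RBL1, which encode pocket proteins that restrain E2F, were higher by 0.89 and 0.80. In all, 7 of 12 G1 cyclins, kinases and pocket proteins were higher and 5 lower, or 3 lower without ICRF replicate 1.

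Cell cycle inhibitors also went both ways, 7 higher and 10 lower of 21 (median -0.17). CDKN1A, the p21 inhibitor induced by p53, was at 107 and 106 CPM in ICRF against 209 and 223 CPM in siControl (log2 -1.02, SE 0.04, adjusted p = 3.53e-14). The siCEBPA libraries, at 132 and 131 CPM, were nearer to ICRF. The antiproliferative genes CCNG2, TXNIP, TOB1 and BTG2 were lower by log2 values of -1.02, -0.99, -0.76 and -0.63. In contrast, CDKN2A and CDKN2C, inhibitors of CDK4 and CDK6, were higher by 1.48 and 1.34, and CDKN1B by 0.23. CDKN2A was at 22.3 and 20.6 CPM against 7.40 and 7.98 CPM, again without overlap. Of 24 p53 target genes, 4 were higher and 12 lower (median -0.17), and against siCEBPA 8 were higher and 9 lower. PLK2 was lower (log2 -2.07), MDM2 was higher by 0.10, and FAS and DDB2 were higher by 0.85 and 0.73.

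Among topoisomerase, cohesin and condensin genes, 16 of 24 were higher and 4 lower (median 0.34). TOP2A was at 1250 and 1220 CPM in ICRF and at 697 and 625 CPM in siControl (log2 0.90, SE 0.05, adjusted p = 1.16e-09), close to the log2 difference of CDK1. TOP2B was at 233 and 238 CPM against 172 and 163 CPM (log2 0.49, SE 0.04, adjusted p = 5.92e-09). TOP1, the type I enzyme, was at 175 in both ICRF libraries and at 169 and 161 CPM in siControl, a log2 difference of 0.08 that did not pass the test (adjusted p = 0.0654, or 0.0349 without siControl replicate 1). RAD21, a cohesin subunit, was higher by 0.60, NCAPG and NCAPD2 of condensin by 1.0 and 0.85, and TDP2, which repairs trapped topoisomerase II, by 0.12. The lower genes were TOP3A, TOP3B, TOP1MT and CTCF.

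**Figure D2:**
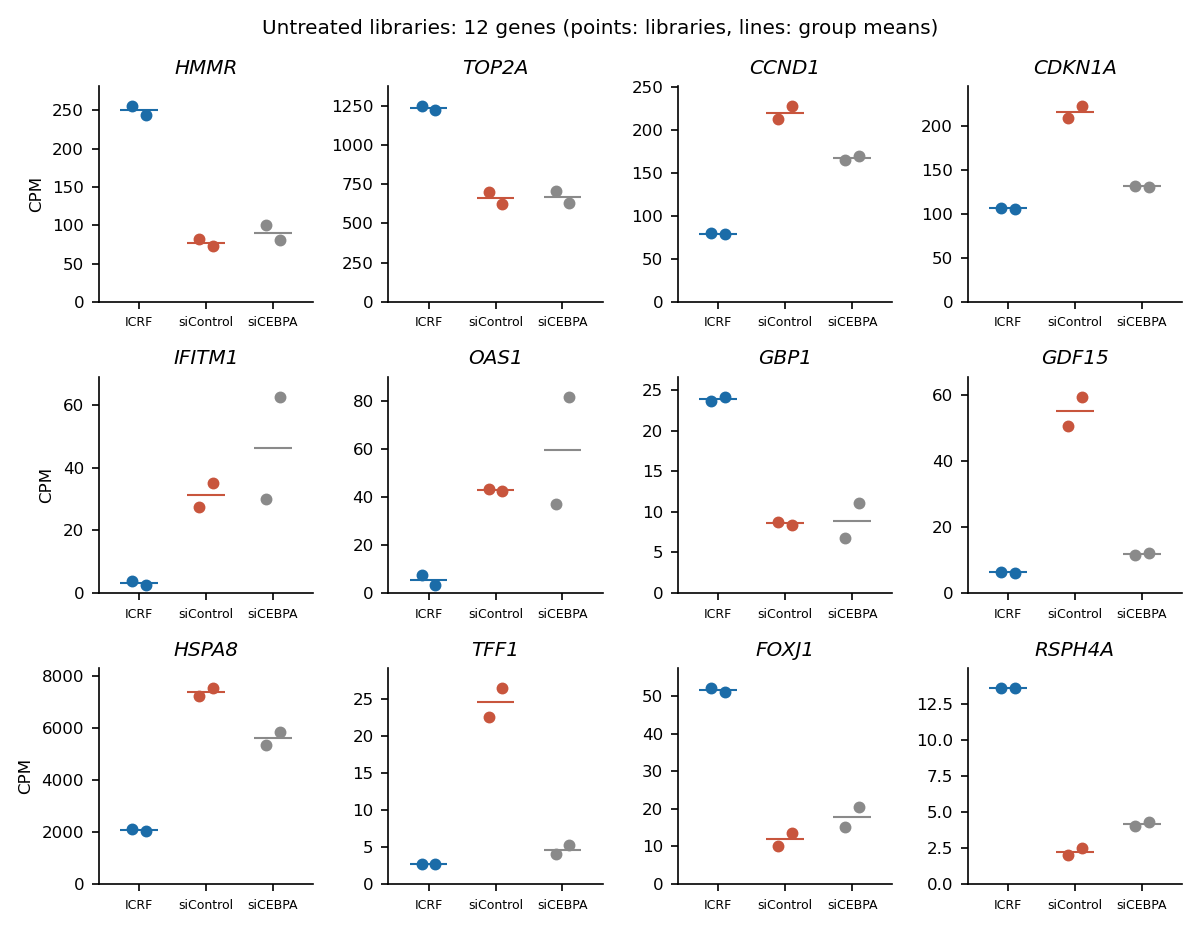
CPM of 12 genes in the 2 libraries (points, mean as a line) of untreated ICRF, siControl and siCEBPA cells, each on its own axis from 0. HMMR, TOP2A, GBP1, FOXJ1 and RSPH4A are highest in ICRF, the others are lowest there; siCEBPA lies near siControl for HMMR and TOP2A but nearer to ICRF for GDF15 and TFF1, and its 2 libraries are far apart for IFITM1 and OAS1.

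Interferon-stimulated genes were lower in the ICRF cells. Of 63 tested, 35 were lower and 2 higher, with a median log2 difference of -0.86, and 25 of the called members differed at least 2-fold. Against siCEBPA, 52 were lower and 2 higher (median -1.30). IFITM1, which blocks viral entry at the membrane (chr11:313506-315272, build hg38), was at 3.85 and 2.67 CPM in ICRF and at 27.5 and 35.0 CPM in siControl. It was 9.66-fold lower (log2 -3.27, SE 0.64, adjusted p = 0.00399). Every siRNA library lay far above both ICRF libraries, siCEBPA at 29.9 and 62.7 CPM included. OAS1, the sensor that makes oligoadenylates on double-stranded RNA, was at 7.29 and 3.24 CPM against 43.3 and 42.5 CPM (log2 -3.03, SE 0.63, adjusted p = 0.00540). MX1, an antiviral GTPase, was at 53.2 and 22 CPM against 168 and 175 CPM (log2 -2.19, SE 0.63, adjusted p = 0.0208).

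The response genes that bind viral RNA and the core transcription factors pointed the same way. IFIT2 was at 4.22 CPM in both ICRF libraries against 21.9 and 17.9 CPM (log2 -2.23, SE 0.12, adjusted p = 9.88e-12). IFIT3 and IFIT1 were lower by log2 values of -2.74 and -1.99. IRF9, the DNA-binding part of the interferon complex, was at 0.183 and 0.268 CPM against 1.85 and 1.55 CPM (log2 -2.89, SE 0.38, adjusted p = 6.86e-06). STAT2 was at 45.9 and 45.8 CPM against 82.6 and 83.4 CPM (log2 -0.86, adjusted p = 1.69e-05). ISG15, a ubiquitin-like protein, was at 4.99 and 2.55 CPM against 10.7 and 15.7 CPM and did not pass (log2 -1.84, SE 0.86, adjusted p = 0.106). Its groups did not overlap, and without the 4 siCEBPA libraries it was called lower (adjusted p = 0.0106). B2M, HLA-B and HLA-C, which encode class I antigen presentation, did not pass the test, with log2 values from -0.19 to 0.22. GBP1 and PSMB9, which interferon gamma also induces, were the 2 higher members. GBP1 was at 23.7 and 24.2 CPM against 8.79 and 8.34 CPM (log2 1.49, SE 0.18, adjusted p = 5.24e-05).

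The libraries of a group did not hold the same interferon level. In 54 of the 63 genes ICRF replicate 1 was above ICRF replicate 2, and in all 63 siCEBPA replicate 2 was above siCEBPA replicate 1, while siControl replicate 1 was the higher in 31. The count of lower genes moved with the libraries used, and without ICRF replicate 2 it was near the share of all genes. It was 18 without ICRF replicate 2, 21 without siControl replicate 2, 24 without either of the other replicates and 52 without the 4 siCEBPA libraries, and the number higher was 6 in that last fit. Transcripts of the interferons themselves were rare. IFNB1 had 0 and 0 counts in ICRF, 7 and 3 in siControl and 16 and 10 in siCEBPA (adjusted p = 0.0208 against siControl). IFNL1 had 0 and 2 counts in ICRF and 13 and 20 in siControl (adjusted p = 0.00259). Both are within a few counts of nothing in libraries of this depth, and no fold is read from them. Of 18 testable genes of the sensing and receptor machinery, 4 were higher and 7 lower (median -0.02). STING1, the adaptor of the DNA sensor, was at 1.78 and 2.47 CPM against 7.44 and 7.35 CPM (log2 -1.80, SE 0.11, adjusted p = 1.56e-11), and without ICRF replicate 2 the number lower in this list was 4. IFNAR1, a receptor chain for type I interferon, was higher by 0.45.

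Genes of the amino acid stress response were lower in ICRF than in siControl, but not than in siCEBPA. Of 25 ATF4-dependent genes, 21 were lower and 1 higher against siControl (median -0.75), while against siCEBPA 9 were lower and 12 higher (median 0.05). GDF15, a secreted stress cytokine, was at 6.41 and 6.13 CPM in ICRF, at 50.5 and 59.5 CPM in siControl and at 11.6 and 12.2 CPM in siCEBPA. It was 8.78-fold lower than in siControl (log2 -3.13, SE 0.19, adjusted p = 6.82e-07) with a log2 of -0.93 against siCEBPA. ASNS, asparagine synthetase, was at 69.6 and 67.1 CPM against 174 and 191 CPM in siControl (log2 -1.42, SE 0.07, adjusted p = 1.01e-09) and 86.7 and 99.2 CPM in siCEBPA. CHAC1, which degrades glutathione, was lower than in siControl (log2 -1.34) and higher than in siCEBPA (log2 1.24). PSAT1 and AARS1 were lower than in siControl (log2 -0.81 and -0.51) and did not differ by the test from siCEBPA (log2 -0.04 and 0.02). For GDF15, ASNS, PSAT1 and AARS1 the siCEBPA libraries lay nearer to ICRF than to siControl, and for CHAC1 ICRF lay between. ATF3 was the 1 higher member, by 0.92, and ATF4 itself was lower (log2 -0.23).

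Of 21 heat shock genes, 15 were lower and 5 higher (median -0.28). Against siCEBPA they were nearer to even, 10 lower and 7 higher (median -0.06). The HSP70 genes carried the largest differences. HSPA8, the constitutive member, was at 2110 and 2030 CPM in ICRF against 7230 and 7570 CPM in siControl and 5370 and 5850 CPM in siCEBPA. It was 3.57-fold lower than in siControl (log2 -1.84, SE 0.04, adjusted p = 8.43e-18). The inducible HSPA1A was at 21.8 and 20.6 CPM against 72.1 and 86.6 CPM (log2 -1.91, SE 0.08, adjusted p = 2.00e-09). HSPA1A and HSPA1B are near-identical copies, so their split is uncertain, and HSPA1B also was lower (log2 -2.06). HSP90AA1 went the other way, at 5720 and 5530 CPM against 3330 and 3040 CPM (log2 0.82, SE 0.05, adjusted p = 2.71e-11). The mitochondrial chaperones HSPD1 and HSPE1 were higher by 0.27 and 0.40, and HSPA4 and AHSA1 by 0.21 and 0.25.

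Other stress lists moved less evenly. All 22 tested NRF2 and oxidative stress genes differed, 8 higher and 14 lower, and against siCEBPA 11 were higher and 3 lower. HMOX1, which degrades heme, was lower (log2 -0.97), SOD1 and TXN were higher by 0.62 and 0.54, and without ICRF replicate 1 the number higher was 5. Of 6 metallothionein and zinc genes 4 were lower and 0 higher, MT1X at 1.1 and 1.86 CPM against 8.06 and 9.05 CPM (log2 -2.54). Hypoxia and glycolysis genes were 7 higher and 10 lower of 20, and 10 higher and 5 lower against siCEBPA, with ADM, NDRG1 and VEGFA lower (log2 -2.11, -1.87 and -1.20). VEGFA, the vascular growth factor, was at 18.0 and 16.9 CPM in ICRF, 37.6 and 42.4 CPM in siControl and 16.5 and 19.4 CPM in siCEBPA, so the ICRF and siCEBPA libraries overlapped. The unfolded protein response split into 8 higher and 6 lower of 20, and into 10 and 3 against siCEBPA. CALR, a chaperone of the endoplasmic reticulum, was higher by 0.62 and HSPA5 was lower (log2 -0.48). CALR did not pass against siCEBPA (log2 0.04), and HSPA5 was at 1330 and 1290 CPM in ICRF and at 1270 and 1350 CPM in siCEBPA. NF-kB and inflammatory genes were 2 higher and 5 lower of 15 (median -0.16), but 8 higher and 2 lower against siCEBPA (median 0.46). Without ICRF replicate 1 the numbers against siControl were 0 and 3, and without any other single library of the 4 the number higher was 1.

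Both kinds of cells carried the luminal markers named next at high levels and the keratins KRT5, KRT14 and KRT6B at or near 0. Other keratins of the basal list, KRT23 and KRT15, are given below. ESR1, PGR, GATA3, KRT8, KRT18, KRT19, EPCAM and CDH1 were all above 100 CPM in all 4 libraries. KRT5, KRT14 and KRT6B were at most 0.146 CPM in any of them, and TP63 at most 0.777 CPM. KRT8 and KRT18, the paired keratins of simple epithelium, were higher in ICRF. KRT8 was at 3980 and 3960 CPM against 2280 and 2420 CPM (log2 0.76, SE 0.05, adjusted p = 4.29e-11), and KRT18 was higher by 0.48. PGR was at 961 CPM in both ICRF libraries and at 989 and 973 CPM in siControl (log2 -0.03, SE 0.03, adjusted p = 0.435). ESR1 was at 175 and 165 CPM against 159 and 149 CPM, a log2 of 0.14 (adjusted p = 0.00586) that was lost without ICRF replicate 1 or siControl replicate 2 (adjusted p 0.114 and 0.112). GATA3 behaved alike at -0.16 (adjusted p 0.00487, and 0.130 and 0.0933 without these libraries). ELF3, CLDN4, ELF5 and FOXA1 were lower (log2 -1.05, -0.90, -0.95 and -0.59). Over the 26 luminal genes 8 were higher and 12 lower (median -0.11).

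Genes of the basal and myoepithelial list were more often higher, 16 of 26 against 3 lower (median 0.71), though KRT5, KRT14, KRT6B and TP63 were barely present. The summed list was at 1380 to 1400 CPM in ICRF against 882 to 929 CPM in siControl, and KRT23, an acidic keratin, made up most of it. KRT23 was at 827 and 836 CPM against 447 and 480 CPM (log2 0.84, SE 0.05, adjusted p = 5.38e-12). LAMB3, a chain of laminin 332, was at 9.34 and 9.0 CPM against 2.27 and 2.36 CPM, with siCEBPA between at 5.22 and 5.57 CPM (log2 1.98, SE 0.11, adjusted p = 2.62e-12). ACTA2, smooth muscle actin, was at 32.8 and 34.2 CPM against 14.2 and 14.1 CPM (log2 1.24, SE 0.08, adjusted p = 1.04e-10). The groups did not overlap for these 3 genes. EGFR and ITGB4 were higher by 0.60 and 0.65, KRT15 and TAGLN were lower (log2 -1.14 and -1.20), and CD44, LAMA3 and ITGA6 did not pass. CDH3 was higher than in siControl by 0.35 and lower than in siCEBPA (log2 -0.46).

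Oestrogen-responsive genes were mostly lower in ICRF, 18 of 29 against 6 higher (median -0.38), and 20 were lower than in siCEBPA (median -0.28). TFF1, a secreted trefoil peptide and classical oestrogen target, was at 2.69 and 2.70 CPM in ICRF and at 22.5 and 26.5 CPM in siControl. It was 9.11-fold lower (log2 -3.19, SE 0.11, adjusted p = 4.99e-15). In the siCEBPA libraries it was at 3.98 and 5.20 CPM, near ICRF. PDZK1 and CXCL12, in contrast, were as high in siCEBPA as in siControl or higher. PDZK1, a scaffold protein, was at 10.4 CPM in both ICRF libraries against 53.6 and 49.4 CPM (log2 -2.30, SE 0.07, adjusted p = 3.20e-16). The chemokine CXCL12 was at 54.8 and 51.7 CPM against 245 and 252 CPM (log2 -2.22, SE 0.05, adjusted p = 3.80e-18). GREB1 was lower (log2 -0.38), CA12, IRS1 and MYBL1 were higher by 0.41 to 0.64, and RARA, NRIP1 and SIAH2 did not pass.

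Of 32 immediate early and serum response genes, 10 were higher and 13 lower (median 0.07), and against siCEBPA 8 were higher and 11 lower. Besides MYC, the lower genes included the feedback inhibitors of the ERK pathway. DUSP6, a phosphatase of ERK, was at 9.53 and 10.6 CPM against 33.7 and 35.9 CPM (log2 -1.79, SE 0.10, adjusted p = 1.39e-10). DUSP4 and SPRY2 were lower (log2 -1.34 and -1.57), as was PHLDA1, at 20.5 and 20.6 CPM against 103 and 101 CPM (log2 -2.31, SE 0.05, adjusted p = 8.43e-18). These were also lower than in siCEBPA. The AP-1 subunits were mixed. JUND and FOSB were higher by 0.94 and 1.24, JUNB was lower (log2 -1.20), and JUN did not pass. FOS was at 3.49 and 5.71 CPM against 2.76 and 2.52 CPM (log2 0.81, adjusted p = 0.00241), which was lost without ICRF replicate 2 (adjusted p = 0.071). CCN1, a matricellular target of YAP and SRF, was at 71.8 and 72.1 CPM in ICRF, 32.1 and 28.4 CPM in siControl and 69.4 and 67.2 CPM in siCEBPA (log2 1.26 and 0.08).

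**Figure D3:**
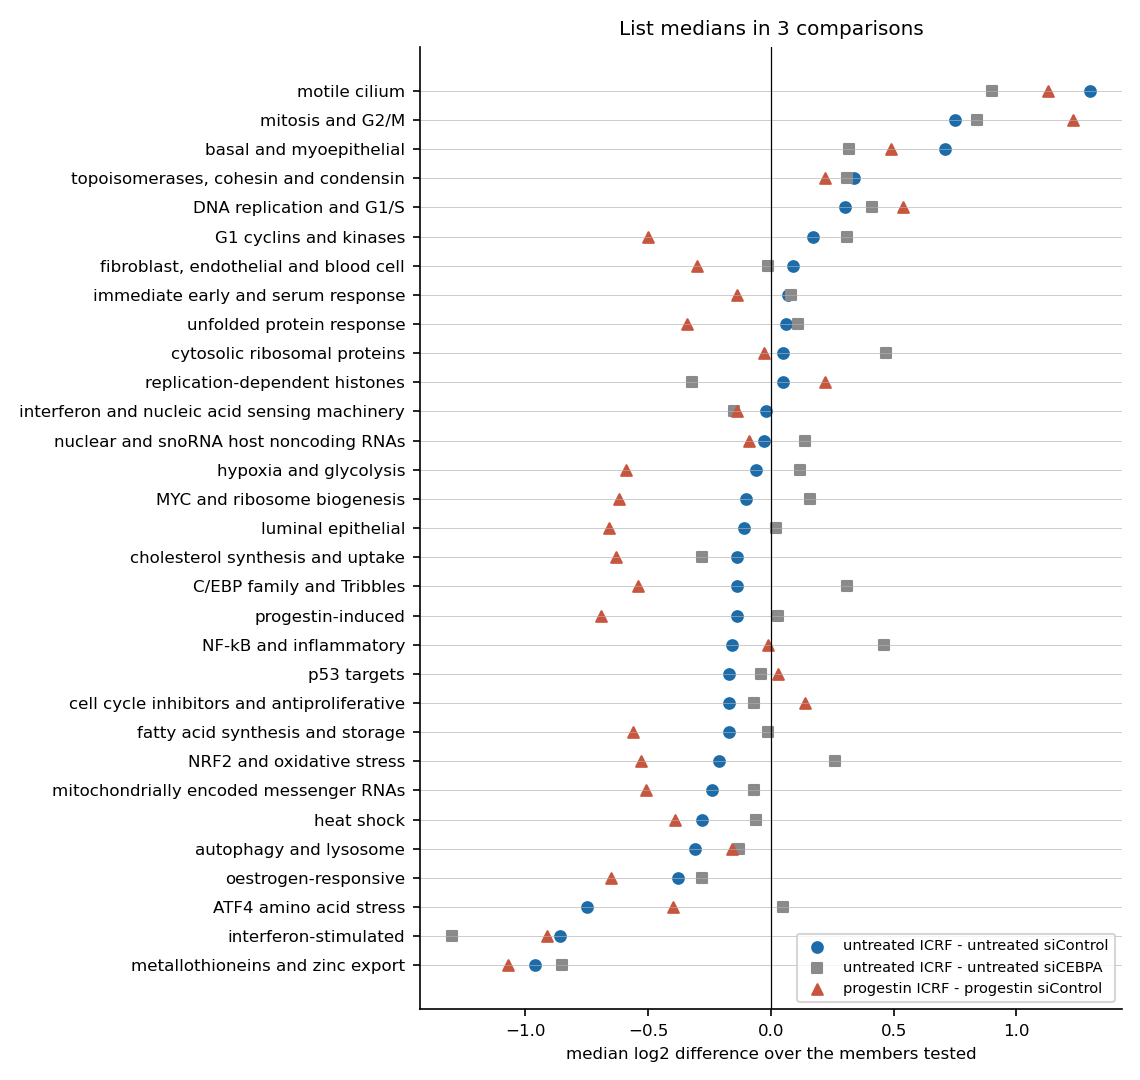
Median log2 difference over the tested members of each list for untreated ICRF minus untreated siControl (circles), untreated ICRF minus untreated siCEBPA (squares) and progestin ICRF minus progestin siControl (triangles). The 3 symbols lie on the same side of 0 for mitosis, motile cilium, interferon-stimulated and oestrogen-responsive genes, whereas for ATF4 genes the square is at 0.05 and the circle at -0.75.

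Genes of the motile cilium were prominent among the largest rises, and a list of 99 of them was drawn up after those rises had been seen. Its count is therefore a description of a pattern already noticed. Motile cilia beat by dynein arms on a microtubule axoneme, and FOXJ1 and RFX factors switch on their genes. Of 90 tested, 76 were higher in ICRF and 4 lower (median 1.30), 55 of the called members at least 2-fold, and 67 were higher than in siCEBPA (median 0.90). FOXJ1 was at 52.3 and 51.2 CPM in ICRF, 10.1 and 13.6 CPM in siControl and 15.2 and 20.4 CPM in siCEBPA. It was 4.32-fold higher than in siControl (log2 2.11, SE 0.25, adjusted p = 0.000294). RFX3 and RFX2 were higher by 1.86 and 0.94. RSPH4A, a radial spoke head protein, was at 13.6 CPM in both ICRF libraries against 2.00 and 2.47 CPM (log2 2.58, SE 0.13, adjusted p = 1.15e-12). ENKUR, an axonemal microtubule inner protein, was at 7.78 and 6.97 CPM against 0.991 and 1.01 CPM (log2 2.88, SE 0.14, adjusted p = 6.14e-13). The axonemal dynein genes DNAH5, DNAH7 and DNAH12 were higher by 0.89, 0.74 and 2.29 and DNAH1 was lower, at 1.60 and 1.39 CPM against 7.70 and 9.23 CPM (log2 -2.51). MCIDAS and CCNO, which start multiciliation, were higher by 0.77 and 1.1.

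Among genes that averaged 5 CPM or more in either group, the 12 largest rises included KRT4, AMPH and NPR3. KRT4, a keratin of stratified mucosa (chr12:52806549-52814551, build hg38), was at 8.65 and 10.0 CPM against 0.431 and 0.624 CPM (log2 4.07, SE 0.19, adjusted p = 1.73e-11). AMPH, the endocytic protein amphiphysin, was higher by 3.22. NPR3, the clearance receptor for natriuretic peptides, was at 13.6 and 13.2 CPM against 2.07 and 1.82 CPM, with siCEBPA between at 6.55 and 6.74 CPM (log2 2.80, SE 0.10, adjusted p = 7.28e-15). HOATZ, ENKUR, ROPN1L, RSPH4A and CFAP276 belong to the cilium list. Beside IFITM1, IFITM3, OAS1, TFF1 and GDF15, the 12 largest falls held GALNT5, which starts O-glycan chains, at 0.433 and 0.444 CPM against 7.38 and 6.46 CPM (log2 -3.97, SE 0.15, adjusted p = 1.87e-14). LRG1, a secreted glycoprotein, was at 1.81 and 1.61 CPM against 14.5 and 16.0 CPM (log2 -3.16, SE 0.14, adjusted p = 3.76e-13).

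The remaining names at both ends were mostly pseudogenes. RPL41P1, a processed copy of a ribosomal protein gene (chr20:21755270-21755350, plus strand, build hg38), was at 0.577 and 0.842 CPM in ICRF against 60.5 and 66.4 CPM in siControl (log2 -6.48, SE 0.29, adjusted p = 8.44e-07). Its parent RPL41 was at 799 and 779 CPM against 299 and 303 CPM (log2 1.39). RPS2P17 (chr2:84915868-84916660) was at 8.19 and 8.32 CPM against 0.115 and 0.186 CPM (log2 5.65), while RPS2 was higher by 0.49. PPIAP22 was lower (log2 -3.08) and PPIA higher by 0.64. In each case the siCEBPA libraries lay close to siControl. Copies as alike as these share reads that aligners and counters split or drop, so the values of the pseudogenes are uncertain. Of 1077 pseudogenes tested, 42 (3.90%) were called with at least an 8-fold difference, against 120 of 14052 protein-coding genes (0.854%) and 243 of all 19003 (1.28%). In the progestin libraries 2.03% of all genes were called with at least an 8-fold difference. Of the 42 pseudogenes, 36 were called in the same direction there and 0 in the opposite one. Of the 120 protein-coding genes these numbers were 92 and 2, and of all 243 genes they were 176 and 2.

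**Figure D4:**
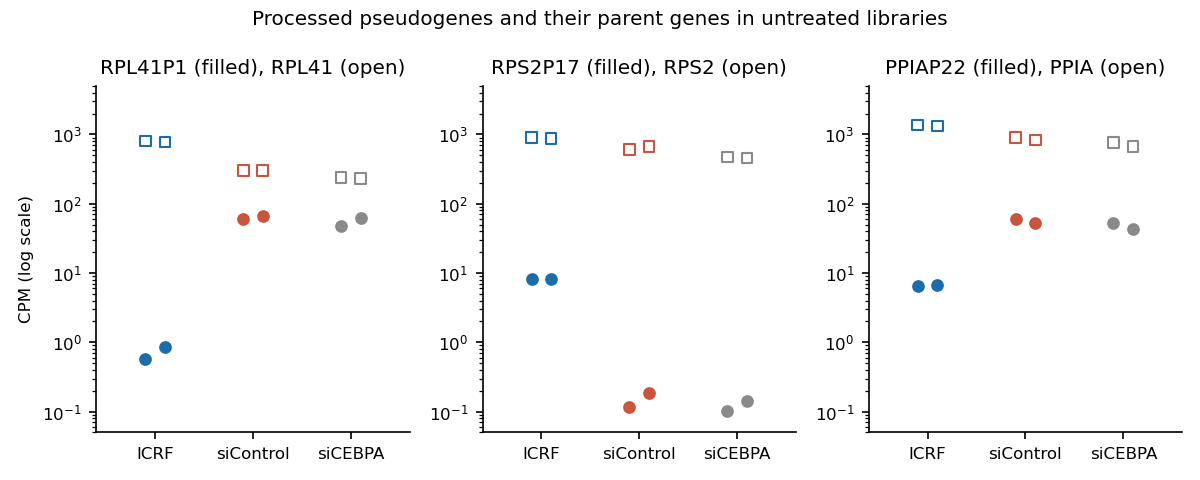
CPM on a log axis of 3 processed pseudogenes (filled circles) and their parent genes (open squares) in the 2 untreated libraries each of ICRF, siControl and siCEBPA. RPL41P1 lies at 47.2 to 66.4 CPM in the siRNA libraries and at 0.577 and 0.842 CPM in ICRF while RPL41 is highest in ICRF, and RPS2P17 is at 8.19 and 8.32 CPM in ICRF and at most 0.186 CPM in the others drawn.

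Lipid and lysosome genes were lower than in siControl more often than higher. Of 27 genes of cholesterol synthesis and uptake, 14 were lower and 7 higher, with LSS and NPC1 lower (log2 -0.80 and -0.81). The summed level of this list was nonetheless higher in ICRF, at 4170 to 4190 CPM against 3680 to 3800 CPM in siControl. Of 22 genes of fatty acid synthesis and storage, 12 were lower and 3 higher, SCD at 1410 and 1360 CPM against 2090 and 1960 CPM (log2 -0.55, SE 0.04, adjusted p = 6.83e-10). Against siCEBPA, 20 cholesterol genes were lower and 5 higher, whereas the fatty acid list was 8 lower and 7 higher (median -0.01). All 19 autophagy and lysosome genes differed, 13 lower and 6 higher, or 3 higher without ICRF replicate 1, and against siCEBPA 9 were lower and 6 higher. Of 30 progestin-induced genes, 14 were lower and 7 higher before any hormone was given (10 and 7 against siCEBPA), TSC22D3 at 19.8 and 18.5 CPM against 38.0 and 39.5 CPM (log2 -1.02). CEBPA itself was at 38.1 and 38.3 CPM in ICRF, 47.7 and 54.4 CPM in siControl (log2 -0.42, adjusted p = 3.53e-06) and 10.7 and 12.1 CPM in siCEBPA, lowest in the libraries labelled with its knockdown.

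Genes of the translation machinery depended on the reference. Of 39 cytosolic ribosomal protein genes, 14 were higher and 13 lower than in siControl (median 0.05), and all 39 were higher than in siCEBPA (median 0.47). Without ICRF replicate 1, in which all 39 were above replicate 2, the number higher than in siControl was 8. Of 23 MYC target and ribosome biogenesis genes, 3 were higher and 11 lower, NOLC1 higher by 1.14 and RRS1 lower (log2 -0.71). Against siCEBPA, 14 of this list were higher and 5 lower (median 0.16). Mitochondrially encoded messenger RNAs were 1 higher and 6 lower of 13, and 3 and 2 against siCEBPA, MT-ND6 at 7.13 and 8.79 CPM against 33.5 and 26.4 CPM (log2 -1.90). The nuclear RNA MALAT1 was at 106 and 111 CPM against 154 and 243 CPM (log2 -0.88, adjusted p = 0.0148), a call that was lost without ICRF replicate 1, ICRF replicate 2 or siControl replicate 2 (adjusted p from 0.0523 to 0.0751). It was also lost with only the 4 compared libraries in the fit (adjusted p = 0.136), and without siControl replicate 2 the log2 value was -0.50.

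The same contrast was made in the progestin libraries, ICRF against siControl, which share no library with the untreated ones. The ICRF labels give no time after hormone and siControl has the label T360 without a unit. There, 13209 genes (69.5%) were called, 35.5% higher and 34.0% lower. Of the genes called, 9758 were called in both contrasts, which is 79.5% of the untreated and 73.9% of the progestin calls, and 8002 of them (82.0%) had the same direction. Mitotic genes were higher in 40 of 40 (median 1.23), 39 in both contrasts. Motile cilium genes were higher in 73 of 90, 69 in both, and basal genes in 14 of 26, 11 in both. With progestin 4 cilium and 7 basal genes were lower. The summed basal list was then at 596 to 631 CPM in ICRF and at 641 to 669 CPM in siControl. Of the interferon-stimulated genes 27 were lower and 6 higher, with 23 lower in both and 3 lower without and higher with progestin. Those 3 were HERC5, IRF7 and STAT2, named after their values were seen. ATF4 genes were 15 lower and 10 higher with progestin, and 7 of the 21 that were lower without it were higher with it. Luminal genes were lower in 21 of 26 with progestin, and 6 of the 8 that were higher in untreated ICRF cells were lower there.

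**Figure D5:**
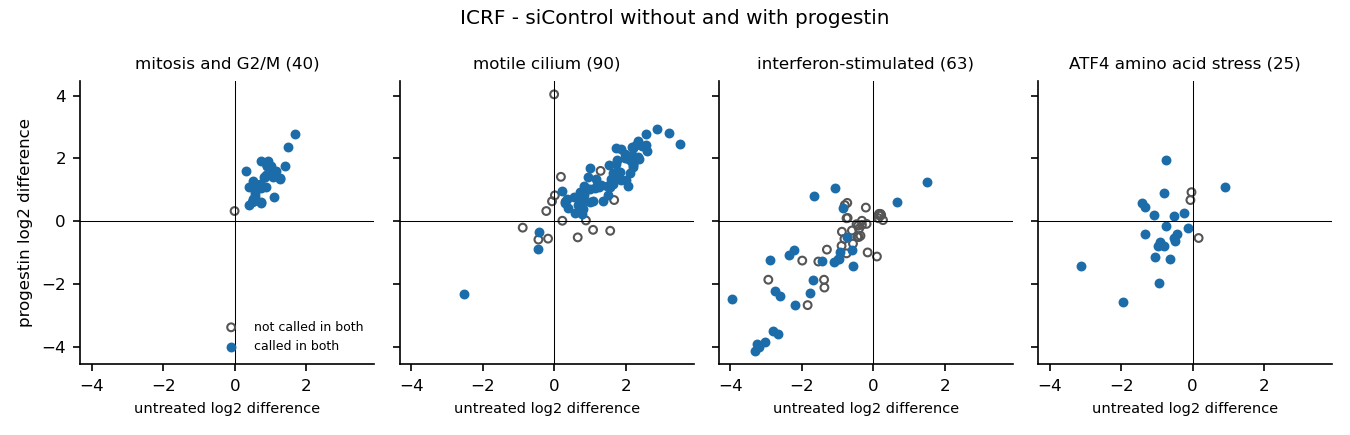
Log2 difference between ICRF and siControl for each tested member of 4 lists, untreated libraries on the horizontal axis and progestin libraries on the vertical axis; filled points were called in both. Mitosis genes fill the upper right (39 of 40 called higher in both), and motile cilium genes lie near the diagonal. Interferon-stimulated genes extend to the lower left. Most ATF4 genes lie left of 0, on both sides of the horizontal line.

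The difference between the contrasts was itself tested as an interaction, and 9293 genes (48.9%) passed, 13.3% with a difference of at least 2-fold. Of those that passed, 50.9% had a higher log2 value of ICRF minus siControl with progestin than without it. Without library scaling factors that share was 65.2%. HMMR, CDK1 and TOP2A were further apart with progestin (log2 2.79, 1.75 and 1.79) than without it (1.69, 0.89 and 0.90), with adjusted p values for the difference of 0.00155, 7.13e-10 and 1.25e-07. KRT18 was higher by 0.48 in untreated ICRF cells and lower with progestin (log2 -0.56). ESR1 had log2 differences of 0.14 and -1.92. HSPA8 was nearer to siControl with progestin, at -0.51 against -1.84, whereas CXCL12, PDZK1, TFF1 and CCND1 had log2 values of -2.30, -2.15, -3.34 and -1.56 with progestin, and the interaction did not pass (adjusted p from 0.214 to 0.471).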

How the data were processed

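RNA was sequenced from T47D cells, and 12 libraries in 6 groups of 2 entered the analysis, while ChIP-seq data were left aside. The values are raw counts per gene as the authors deposited them, made with featureCounts on paired reads aligned with STAR, counted on the reverse strand against GENCODE 24 on hg38, per the file headers. Trimmomatic is named in the submitters' processing notes. Libraries held 57364785 to 148624099 counts. Groups were taken from the sample titles, and every deposited column that holds a library's counts was used.

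Counts were tested in R 4.3.3 with the packages edgeR 4.0.16 and limma 3.58.1 (filterByExpr by group, TMM scaling, robust quasi-likelihood fit over all 12 libraries, 6 residual degrees of freedom). The common biological coefficient of variation was 0.0464. P-values were adjusted by Benjamini-Hochberg over all 19003 genes tested, and a call is an adjusted p under 0.05. Log2 values are ICRF minus the reference, and CPM are counts scaled to 1000000 per library, not per gene length, so levels are not compared between genes. The script was tested on simulated data first.

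The members and the 30 gene lists were chosen with earlier results of these data known, and the motile cilium list was added after the largest differences had been seen. Genes named by rule were the 12 largest rises and 12 largest falls among called genes that averaged 5 CPM or more in either group and whose libraries did not overlap, the 5 lowest p values of every list, and a set of receptors, cell cycle and topoisomerase genes. A few genes that the rule names are not reported here. Other list members were named after their values were seen. Promoters came from a RefSeq table of GRCh38.p14. Alternatives were other scaling factors, DESeq2 1.42.0, other filters, only the libraries compared, a replicate block and leaving out each library. After seeing the data, siCEBPA as the reference and a fit without the 4 siCEBPA libraries were added.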

Additional observations from a re-analysis of the deposited data

Results flagged for a closer look

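For 38 of the genes named by the rule, the difference between ICRF and siControl cells was itself different with and without progestin, by at least 1 on the log2 scale and at an adjusted p under 0.05 in edgeR's test of the interaction. Values in parentheses are the log2 difference with progestin minus that without. They are 38 of 178 named genes, and 2534 of all 19003 genes (13.3%) passed the test of the interaction at that size.

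Values were above 0 for 22 genes. Among growth factor and immediate early genes they were EGR1 (2.11), NR4A1 (1.94), PHLDA1 (1.48) and SPRY2 (1.30). EGR1, an early growth response factor, was lower in untreated ICRF cells (log2 -0.59) and higher with progestin (1.52). Among stress and metal genes they were SLC30A1 (2.26), NDRG1 (1.76), PSAT1 (1.71), GDF15 (1.69), ALDOC (1.63), HSPA1A (1.45), HSPA8 (1.33) and ALDH1L2 (1.28). SLC30A1, a zinc exporter, turned from -0.61 to 1.65, and PSAT1, an enzyme of serine synthesis, from -0.81 to 0.90. Cell cycle inhibitors and p53 targets among them were CCNG2 (1.52), PLK2 (1.15) and TXNIP (1.0). The inflammatory and interferon genes were IRF9 (1.65), TRAF1 (1.32) and IFIT2 (1.30), the histone genes H3C6 (2.07), H4C5 (1.11) and H2BC5 (1.0), and the last was MLXIPL (1.21), a glucose-responsive transcription factor.

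Values were below 0 for 16 genes. ESR1 (-2.07) had the largest, with log2 differences of 0.14 without and -1.92 with progestin. Other epithelial and hormone-responsive genes were TSC22D3 (-1.98), KRT4 (-1.69), CLDN4 (-1.31), KRT15 (-1.07) and KRT18 (-1.04). The lipid and metabolic genes were SCD (-1.28) and PFKFB3 (-1.0). The remaining genes were AMPH (-1.55), NOP16 (-1.24), CSF1 (-1.18), LHFPL6 (-1.17), PRR13P5 (-1.16), MT2A (-1.03), STC2 (-1.03) and KRT8P11 (-1.0). PRR13P5 and KRT8P11 are pseudogenes, whose counts are uncertain.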

How the results depend on the processing

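The 6 counts of genes called higher or lower stayed within 1.5 times the values reported under every alternative run. Leaving out each library gave 5284 to 5731 higher and 5228 to 5840 lower genes between the untreated groups. No scaling factors moved the progestin median of all genes to 0.17 and the share of progestin calls that were higher from 51.1% to 60.2%, and left the untreated median at -0.01. Over all genes, same-numbered libraries had deviations correlated between -0.031 and 0.07, which does not settle whether the replicate numbers pair the samples. Of 40 mitotic genes, replicate 1 was above replicate 2 in 37 for siControl, 39 for siCEBPA and 29 for ICRF. Of 63 interferon-stimulated genes, these numbers were 31, 0 and 54. Pairing was not tested further. A fit with the replicate block called 6192 genes higher and 6194 lower and kept 99.4% of the calls. The 178 named genes kept their call under the other scalings, no filter and the block, and DESeq2 kept 176. Between 172 and 175 kept it when a library of the comparison was left out, where none reversed.

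With untreated siCEBPA cells as the reference, 146 of 178 named genes stayed on their side of the threshold and had no reversed call. Of the others, 12 lost the call and 1 gained it. The remaining 19 changed sign and were called with at least 1 of the references. In all, the log2 value of 21 changed sign, which includes TOP1, called with neither reference. The log2 values turned to 1.75 for CEBPA, 0.56 for ATF4, 0.35 for WARS1, 0.31 for DDIT3, 0.30 for ZFAS1, 0.28 for GAS5, 0.18 for PGR, 0.15 for MKI67, 0.10 for SNHG16, 0.08 for HYOU1, 0.07 for RRS1, 0.06 for NFKBIE, 0.05 for TRIB3 and CEBPZ, 0.03 for MT2A, 0.02 for IRF1 and MAVS, and to -0.48 for H2BC5, -0.42 for LUM, -0.27 for H2AC8 and -0.05 for TOP1. The cause was not tested. With 2 libraries a group, no difference between replicates of the untreated groups can be assigned to one of them.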

Other observations

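Differences varied with the length of a gene on the chromosome, which no list had used. Of 603 tested genes that span at least 300 kb, 46.3% were higher in untreated ICRF cells and 18.7% lower (median log2 0.248). Of 6048 genes under 10 kb, 24.8% were higher and 30% lower (median -0.054). The Spearman correlation of the log2 difference with gene span over 19003 genes was 0.093, and that with exon length was -0.021; genes are not independent and share the same libraries. With progestin, 40.8% of the genes of at least 300 kb were higher and 32.8% lower.

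Long noncoding RNA genes were higher more often than lower, 445 against 240 of 1506 tested, with a median of 0.213. These were 29.5% and 15.9%, against 32.3% of all genes tested in each direction, so the small share lower set them apart. With progestin 539 of the 1506 were higher and 264 lower. Of 1077 pseudogenes, 226 (21%) were higher and 345 (32%) lower. Protein-coding genes were even, with 35.8% higher and 35.2% lower.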
